A study of Homo sapiens with 15 samples.

Results

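The BCL2 family decides whether a cell starts apoptosis through its mitochondria, and 10 of its genes were followed in T47D breast cancer cells that had become resistant to 4-hydroxytamoxifen (4-OHT). The members were BCL2, BCL2L1 and MCL1 (pro-survival), BAX and BAK1 (effectors), and BCL2L11, BBC3, PMAIP1, BIK and BMF (BH3-only). They were found by their symbols among the 60664 Ensembl gene IDs counted, and all 10 were found once and passed the filter on low counts, as did 16210 genes in all. T47D is an established line of luminal breast epithelium that expresses the oestrogen receptor. RNA was sequenced in 15 libraries, 3 in each of 5 groups. Resistant cells (TR) received 1 µM 4-OHT with 5 µM erdafitinib (TR combination), 5 µM erdafitinib (TR erdafitinib), 1 µM 4-OHT (TR 4-OHT) or DMSO (TR vehicle), and parental cells (PAR) received DMSO alone (PAR vehicle). 4-OHT is the active metabolite of tamoxifen and an antagonist of the oestrogen receptor in breast cells, and erdafitinib inhibits the kinases of the fibroblast growth factor receptors. All groups were kept for 48 h in medium with charcoal-stripped serum and insulin and then treated for 120 h, and the vehicle was 0.05% DMSO. Before that, TR cells were grown in 2% charcoal-stripped serum with 1 µM 4-OHT and PAR cells in 5% serum without it, so resistance, the medium and past 4-OHT cannot be told apart between TR and PAR. The labels give 1 resistant and 1 parental line and call the libraries biological replicates without saying whether they came from separate cultures, so the p-values measure only the spread between these libraries, which may be technical.

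Pro-survival members bind and hold back the effectors, and the effectors, once freed and activated, form pores in the outer mitochondrial membrane that release cytochrome c. BH3-only members sense stress or loss of survival signals and either block the pro-survival members or activate the effectors directly. BCL2 is an oestrogen-responsive gene in breast epithelium, and its protein is a known marker of luminal tumours.

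What the members share is the BH3 motif, an amphipathic helix through which they bind one another. Its coding stretch is shown for all 10 because the letters show how far the family has diverged around a fixed core. Each line gives 42 bases of the coding strand, 5′ to 3′, in GRCh38, read from GENCODE transcripts, with the codons of the core leucine and the core aspartate in capitals. The stretches lie at chr18:63318349-63318390 (BCL2, minus strand), chr20:31721922-31721963 (BCL2L1, minus), chr1:150578865-150578906 (MCL1, minus), chr19:48955775-48955816 (BAX, plus), chr6:33575387-33575428 (BAK1, minus), chr2:111150091-111150132 (BCL2L11, plus), chr19:47226579-47226620 (BBC3, minus), chr18:59902661-59902702 (PMAIP1, plus), chr22:43127704-43127745 (BIK, plus) and chr15:40104195-40104236 (BMF, minus). All are coding exons.
BCL2: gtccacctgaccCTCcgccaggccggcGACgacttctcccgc
BCL2L1: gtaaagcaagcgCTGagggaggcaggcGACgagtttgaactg
MCL1: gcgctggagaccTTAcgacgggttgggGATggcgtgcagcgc
BAX: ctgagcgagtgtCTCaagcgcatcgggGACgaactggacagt
BAK1: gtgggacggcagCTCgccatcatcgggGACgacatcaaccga
BCL2L11: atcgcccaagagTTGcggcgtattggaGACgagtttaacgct
BBC3: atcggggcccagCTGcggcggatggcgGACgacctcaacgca
PMAIP1: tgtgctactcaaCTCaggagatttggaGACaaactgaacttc
BIK: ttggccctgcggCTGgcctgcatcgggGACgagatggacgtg
BMF: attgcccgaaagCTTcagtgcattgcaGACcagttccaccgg
Counts were made per gene, so they do not separate isoforms with and without this stretch. In BCL2L11, for example, the stretch was found in 7 of 17 annotated coding transcripts, in BMF in 4 of 9 and in BAX in 4 of 7. Any transcript whose annotated coding sequence does not begin with ATG was not searched but is in these totals. The numbers found are therefore lower bounds.

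Library totals ran from 6946684 to 28717380 counts (median 22304029), and the shallowest were PAR vehicle 2 and TR 4-OHT 2. All 8 luminal epithelium markers averaged at least 1 CPM (counts scaled to library size) in each group. Of the markers of other cell types, COL1A1 was the fibroblast gene above that level, and the summed endothelial markers stayed at or below 0.0516 CPM. Within groups, libraries spread along 1 main axis that held 61.4% of the within-group variance and whose gene weights followed the GC content of the genes (Spearman's rho 0.778 across 16033 genes, which are not independent replicates). TR vehicle 1 stood at its low end (score −1.82) and PAR vehicle 3 at its high end (1.64), and members moved with it, as given beside the results.

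Per length of transcript, the family's mRNA was dominated by BCL2L1 and MCL1 in every group. In RPKM, which is CPM per kilobase of exon, TR vehicle cells held 42.0 ± 9.20 of MCL1 and 41.7 ± 11.2 of BCL2L1 (SD, n = 3), whose libraries overlapped. PAR vehicle cells held 41.9 ± 6.88 of MCL1 and 64.4 ± 16.3 of BCL2L1, and there every library had more BCL2L1 than any had MCL1. BCL2 came next in PAR vehicle cells, at 8.04 ± 0.741 RPKM, above BAK1 without overlap. In TR vehicle cells BCL2 was at 2.85 ± 0.511 RPKM, below BAK1 at 10.6 ± 5.54 and BAX at 3.52 ± 1.96 and overlapping with both BAX and BCL2L11. BIK and BBC3 were the least abundant members in all 4 TR groups, at 0.306 to 0.797 RPKM, and BIK was the least abundant in PAR vehicle cells, at 0.471 ± 0.319 RPKM.

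The summed RPKM of the 3 pro-survival members was 84.8, 87.9 and 86.9 in TR vehicle cells, against 110, 108.2 and 124.7 in PAR vehicle cells. The sums did not overlap. BCL2 made up 3.30% ± 0.654 of that sum in TR vehicle cells and 7.08% ± 1.01 in PAR vehicle cells (SD, n = 3). With drugs, the sum averaged 76.0 ± 3.09 in TR combination, 76.7 ± 2.66 in TR erdafitinib and 82.2 ± 4.55 in TR 4-OHT cells. The split between MCL1 and BCL2L1 varied inside groups: MCL1 was 62.0% of the sum in TR vehicle 1 but 42.2% and 41.8% in the other TR vehicle libraries. The sum of the effectors was 14.1 ± 7.49 RPKM in TR vehicle and 7.28 ± 4.45 RPKM in PAR vehicle cells, and that of the BH3-only members 6.84 ± 0.335 and 9.04 ± 2.14 RPKM in the same groups. No test was run on these sums.

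**Figure D1:**
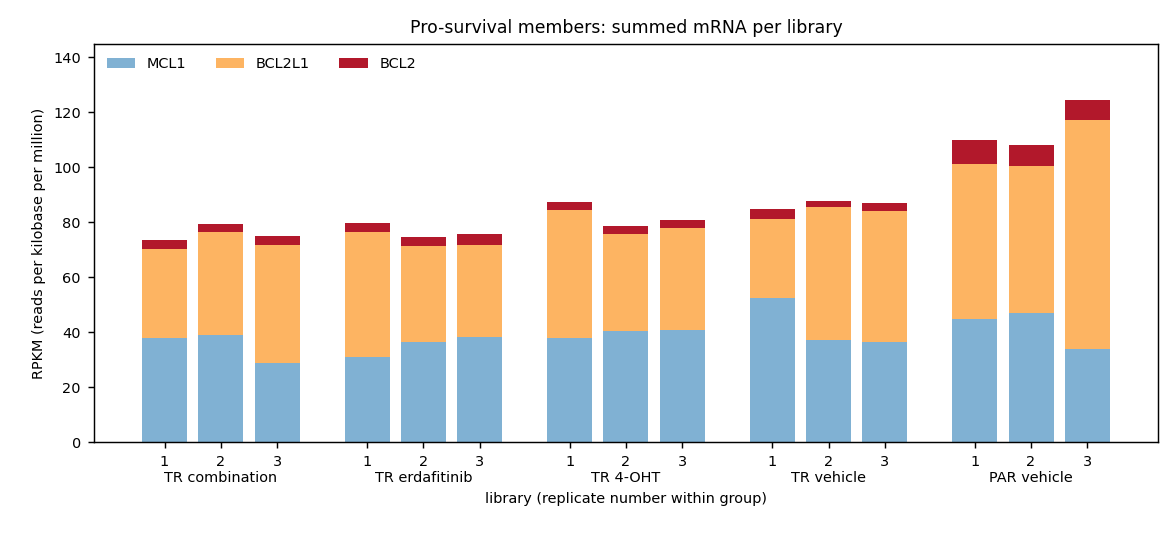
Stacked bars give the RPKM of MCL1, BCL2L1 and BCL2 in each of the 15 libraries, grouped from TR combination on the left to PAR vehicle on the right. The 3 PAR vehicle bars reach 108.2 to 124.7 and every TR bar stays at or below 87.9, and the BCL2 segment is thinner in every TR library.

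The comparison of TR vehicle with PAR vehicle asks how resistant and parental cells differ when no drug is present. Of the 10 members, 4 fell in TR vehicle cells (BCL2, BCL2L1, BBC3, BMF), 1 rose (BAK1) and 5 did not pass the test (edgeR's quasi-likelihood test, Benjamini-Hochberg adjusted p under 0.05 over all genes tested). Among all genes tested, 35.9% were called, 19.9% higher and 16% lower, and the members' share of calls is read against that background. The member median was a log2 fold change of 0.07, and that of all genes was also 0.07. Groups did not overlap for the 4 members that fell, against 18.5% of all genes lower without overlap. With counts corrected for GC content and gene length, the same 5 members were called, beside 51.4% of all genes. The median of all genes then moved to −0.19. All calls split into 3160 higher and 5165 lower, against 3220 higher and 2598 lower without the correction.

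**Figure D2:**
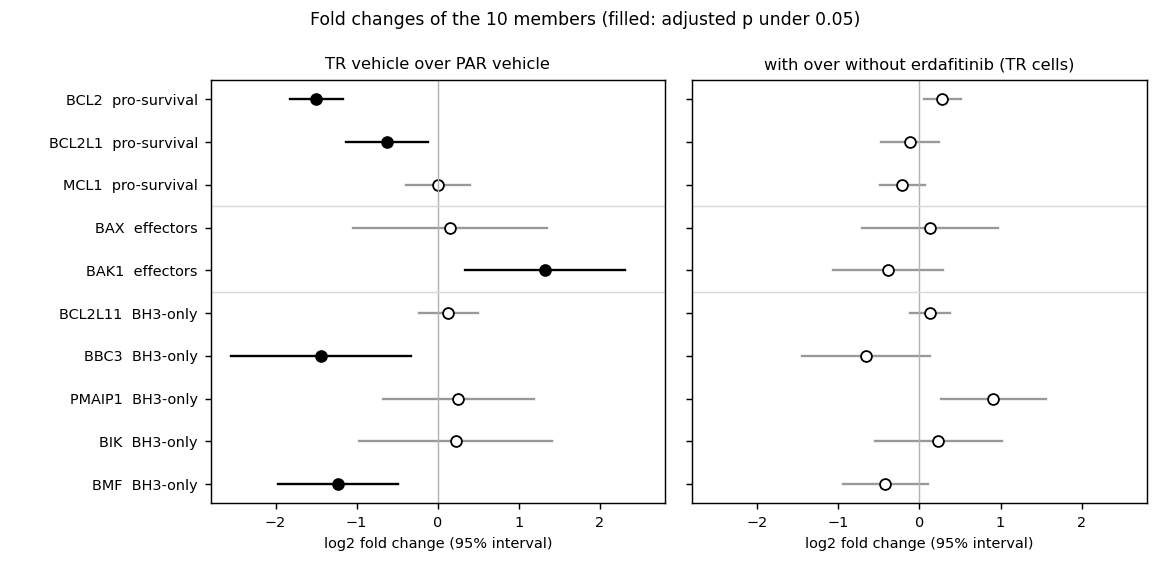
Points are log2 fold changes of the 10 members with 95% intervals, for TR vehicle over PAR vehicle (left) and for TR cells with over without erdafitinib, averaged over 4-OHT (right). Filled points passed an adjusted p of 0.05: BCL2, BCL2L1, BBC3 and BMF lie to the left and BAK1 to the right in the first panel, and no point is filled in the second.

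BCL2, the founding pro-survival member, showed the clearest difference of the family. It stood at 43.1, 30.5 and 34.3 CPM in TR vehicle cells, against 112, 96.7 and 95.3 CPM in PAR vehicle cells. Every TR vehicle library lay well below every PAR vehicle library. The log2 fold change was −1.50 (SE 0.146, 2.82-fold lower, edgeR adjusted p = 2.45e-06), and BCL2 was the member whose call was kept under all 15 alternatives, at −1.81 to −1.37. In all 12 TR libraries, whatever the treatment, BCL2 was at 30.5 to 46.9 CPM (median 40.7), below the lowest PAR vehicle library. The share of all genes that part the 12 TR libraries from PAR vehicle was not counted. This value and the like ones given below for other members thus have no background.

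BCL2L1 encodes the pro-survival protein BCL-XL and, by splicing, a shorter pro-apoptotic form that these counts do not tell apart. It had 120.8, 203 and 201 CPM in TR vehicle cells, against 237, 225 and 349 CPM in PAR vehicle cells. The groups did not overlap, but TR vehicle 1 lay far below its group and PAR vehicle 3 far above. The log2 fold change was −0.63 (SE 0.227, adjusted p = 0.0433 in edgeR). The call rests on single libraries: it was lost without PAR vehicle 3 (−0.37) or TR vehicle 1 (−0.41), 2 (−0.73) or 3 (−0.72). With the correction for GC content and length it was −1.07 (SE 0.127, edgeR adjusted p = 3.76e-06). Under that correction 51.4% of all genes were called and their median moved to −0.19. The correction was fitted to these same libraries. All 12 TR libraries, at 120.8 to 203 CPM of BCL2L1, were below the lowest PAR vehicle library, again without a background over all genes. A gene on the opposite strand, ABALON, covers 41.3% of its exon length, and counting was stranded.

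MCL1, a pro-survival protein with a short half-life, did not pass the test. Its levels were 327, 231 and 226 CPM in TR vehicle cells and 278, 292 and 212 CPM in PAR vehicle cells. The groups overlapped throughout, and the 95% interval of the log2 fold change ran from −0.39 to 0.40 around an estimate of 0.00. That interval excluded a fall as large as that of BCL2.

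Of the effectors, BAK1 rose. BAK1, which sits in the outer mitochondrial membrane, had 9.44, 31.9 and 29.2 CPM in TR vehicle cells, against 6.71, 6.51 and 14.5 CPM in PAR vehicle cells. TR vehicle 1 fell below PAR vehicle 3, so the groups overlapped. The log2 fold change was 1.33 (SE 0.441, 2.51-fold higher, edgeR adjusted p = 0.03). It was not called without PAR vehicle 1 (1.14) or 2 (1.14), or without TR vehicle 2 (1.06) or 3 (1.16). With the within-group axis as a covariate its SE was 0.166 and its edgeR adjusted p 2.53e-06, at a log2 fold change of 1.31. The covariate was taken from these same libraries and BAK1 moved with it (Pearson's r 0.952), so a smaller SE was built in. Under that setting 57.5% of all genes were called. Of the 12 TR libraries, 9 exceeded the highest PAR vehicle library, a count without a background over all genes.

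BAX, the effector that moves from the cytosol to mitochondria on activation, was too variable for a small change to be seen. It had 3.41, 13.1 and 10.8 CPM in TR vehicle cells and 4.95, 3.97 and 15.2 CPM in PAR vehicle cells. Each group spanned several-fold and the groups overlapped almost completely. The log2 fold change was 0.15 with a 95% interval from −1.05 to 1.34. It was 1.05 without PAR vehicle 3, 0.54 without TR vehicle 1 and −0.20 without TR vehicle 2. Without any 1 library of these groups the adjusted p in edgeR was 0.137 or more.

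Of the BH3-only members, BBC3 and BMF fell, and BCL2L11, PMAIP1 and BIK did not pass the test. The members were not tested against each other. BMF, which is released from the actin and myosin cytoskeleton by loss of attachment, had 5.62, 9.32 and 9.92 CPM in TR vehicle cells, against 15.9, 12.6 and 29.6 CPM in PAR vehicle cells. The highest TR vehicle library lay below the lowest PAR vehicle library. BMF differed by −1.23 on the log2 scale (SE 0.334, edgeR adjusted p = 0.0102). Without PAR vehicle 3 it was −0.75 with an adjusted p of 0.0766 in edgeR. All 12 TR libraries, at 5.08 to 9.92 CPM, were below the PAR vehicle libraries, a separation not counted over all genes.

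BBC3 encodes PUMA, a direct p53 target. It had 0.619, 2.47 and 1.44 CPM in TR vehicle cells, against 3.52, 5.88 and 3.20 CPM in PAR vehicle cells. The groups did not overlap, though all 15 libraries held only 11 to 88 counts. The log2 fold change was −1.44 (SE 0.499, edgeR adjusted p = 0.0362). With the correction for GC content and length it was −2.57 (SE 0.757), beside a median of −0.19 for all genes. The call was lost without PAR vehicle 1 (−1.54) or 2 (−1.13), or without TR vehicle 1 (−1.07) or 3 (−1.38). Of the 12 TR libraries 11 were below the lowest PAR vehicle library, a count without a background over all genes. The exception was TR 4-OHT 2 at 3.63 CPM, one of the shallowest libraries.

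BCL2L11 encodes BIM, which activates the effectors and binds all pro-survival members. Its levels were among the steadiest of the family, at 20.0, 15.8 and 17.9 CPM in TR vehicle and 17.0, 17.3 and 14.8 CPM in PAR vehicle cells. The groups overlapped, and the log2 fold change of 0.13 had a 95% interval from −0.23 to 0.49. Of the 12 TR libraries, at 15.8 to 22.9 CPM, 11 were above the highest PAR vehicle library. That count has no background over all genes, and BCL2L11 followed the within-group axis (Pearson's r −0.848), so no rise is read from it. PMAIP1, which encodes NOXA, the antagonist of MCL1, had 4.28, 3.22 and 2.67 CPM in TR vehicle and 2.85, 0.953 and 4.33 CPM in PAR vehicle cells, with an interval from −0.68 to 1.18 around 0.25. Without PAR vehicle 3 the estimate was 0.79, and without PAR vehicle 2 −0.10. BIK, a BH3-only protein of the endoplasmic reticulum, was at 0.258, 0.673 and 0.821 CPM in TR vehicle and 0.420, 0.159 and 0.764 CPM in PAR vehicle cells. With 1 to 31 counts of BIK per library and an interval from −0.97 to 1.41, a change in BIK was not detectable at this depth. Under the correction for GC content and length the estimates of MCL1, BAX and BCL2L11 were −0.22, −0.19 and −0.10. The median of all genes was −0.19 there, so the signs of these members carry no weight.

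**Figure D3:**
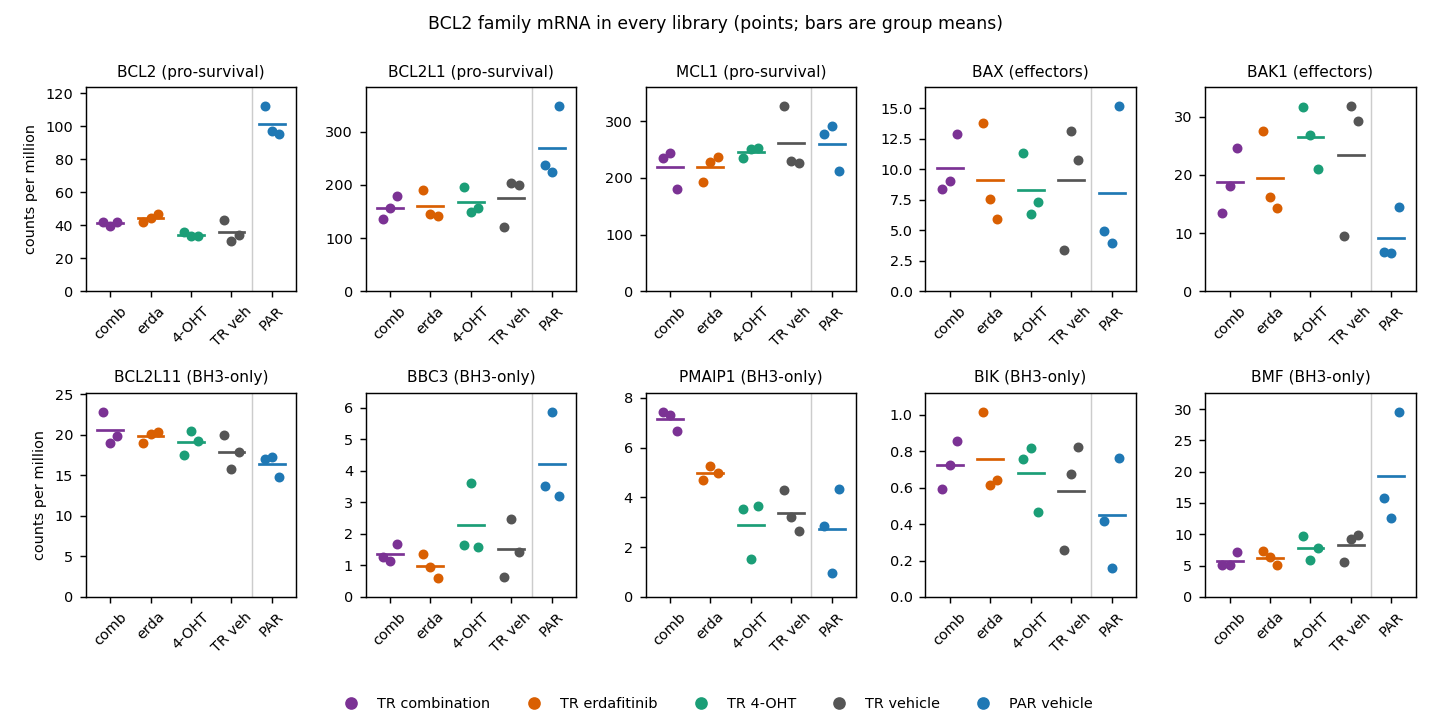
Each panel shows 1 member in CPM (linear axis from 0), with 1 point per library, the group mean as a bar, and the 4 TR groups to the left of PAR vehicle. BCL2, BCL2L1 and BMF are lower in all 12 TR libraries than in any PAR vehicle library, a separation not counted over all genes. The 6 libraries with erdafitinib have more PMAIP1 than the 6 without it.

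Part of the spread inside groups ran along the main axis. Of the 10 ends of the 5 groups (the library highest and the library lowest on the axis in each), BCL2L1 and BAX were also highest or lowest in the same direction at all 10, BAK1 and BMF at 9 and BIK at 6. BCL2L11 was at the opposite end in 9 and MCL1 in 7. TR vehicle 1 thus paired the lowest BAX, BAK1 and BCL2L1 of its group with its highest MCL1 and BCL2L11, and PAR vehicle 3 the reverse. BCL2L1, BAX, BAK1, BMF and BIK have transcripts of 54.8 to 58.9% GC, and MCL1 and BCL2L11 of 45.1 and 45.7% GC. BBC3 and PMAIP1 followed the axis weakly (Pearson's r 0.253 and 0.3), with 5 and 3 ends in the same direction. Their transcripts have the highest and the lowest GC content of the family (69.7 and 37.2%). Counts per library were low for both, at 11 to 88 for BBC3 and 6 to 189 for PMAIP1. BCL2, at 45.6% GC, was at the opposite end in 5 (r −0.583). The part of GC content in where the members lay on the axis was not tested. The axis was taken from these same libraries, and matching ends were not counted over all genes. The members' counts thus have no background. The share of counts from mitochondrial genes, 14.5 to 25.7% over the 15 libraries, moved against the axis and was at the opposite end in 8 of 10. It was 22.6, 18.6 and 15.6% in TR vehicle 1, 2 and 3, against 25.7, 24.0 and 14.5% in PAR vehicle 1, 2 and 3. Its part in the members' spread was not tested, nor was whether the axis comes from cell state or library preparation.

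**Figure D4:**
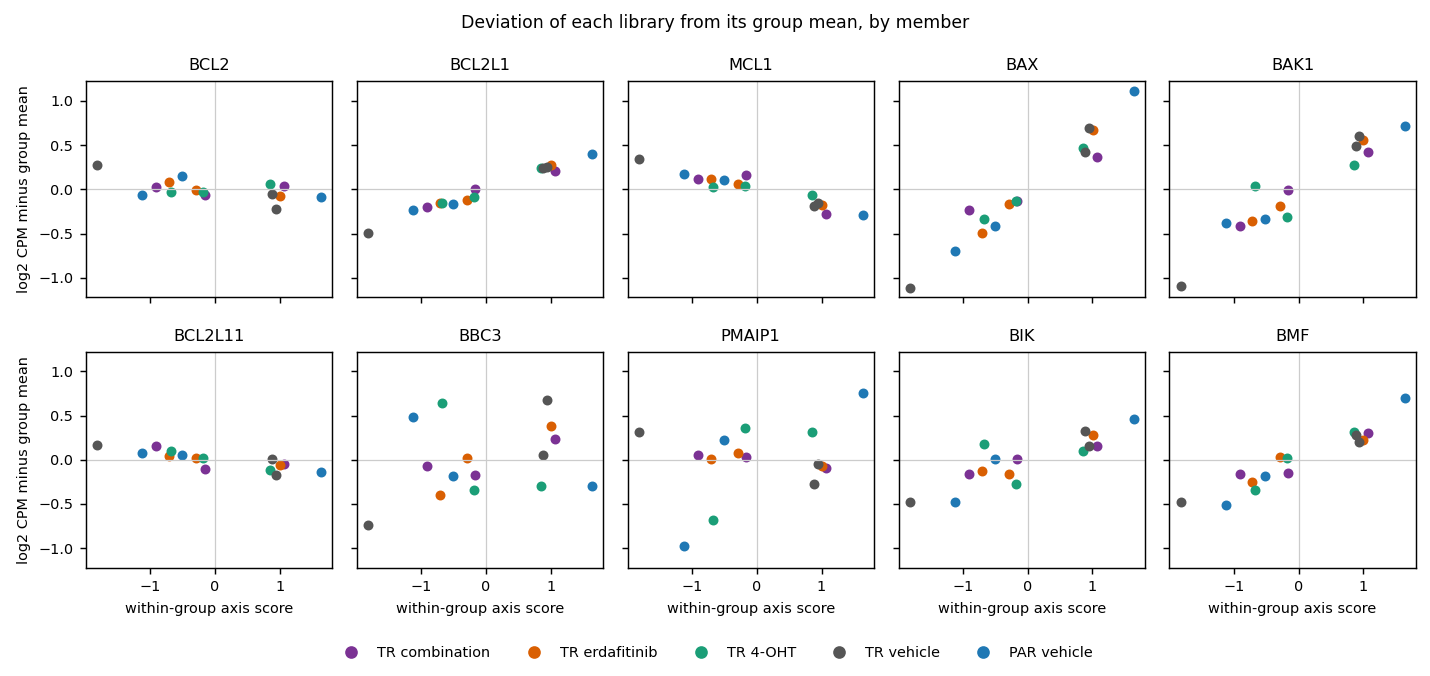
Each panel plots, for 1 member, the deviation of a library's log2 CPM from its group mean against the library's score on the main within-group axis (in SD units), coloured by group. BCL2L1, BAX, BAK1, BIK and BMF climb with the score, and MCL1 and BCL2L11 descend. BCL2 descends more loosely (Pearson's r −0.583), and BBC3 and PMAIP1 follow the score weakly (0.253 and 0.3).

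Other genes of the pathway were read in the same comparison. The counts of called genes below stand against 35.9% called among all genes, and the list medians against a median log2 fold change of 0.07. Among 9 tested of 13 other BCL2 family genes, 1 rose and 2 fell in TR vehicle cells (list median 0.09), which is near that share. BID, the BH3-only protein cleaved by caspase-8, had 15.7, 17.9 and 16.6 CPM in TR vehicle cells, against 7.30, 11.9 and 8.66 CPM in PAR vehicle cells (log2 fold change 0.86, SE 0.212, edgeR adjusted p = 0.0057). BNIP3, a mitophagy receptor, fell by 0.73 on the log2 scale (SE 0.145, edgeR adjusted p = 0.00127). HRK, another BH3-only gene, was called at −1.54 (edgeR adjusted p = 0.0229), but the call was lost without PAR vehicle 2 (−1.04) or TR vehicle 2 (−1.55) or 3 (−1.41).

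Downstream of the mitochondria, 3 of 14 tested apoptosome and caspase genes rose and 2 fell (list median 0.30), so the share called was that of all genes. CYCS, cytochrome c itself, was at 181, 160 and 148 CPM in TR vehicle cells, against 393, 400.0 and 336 CPM in PAR vehicle cells. The groups were far apart, and the log2 fold change was −1.21 (SE 0.151, edgeR adjusted p = 2.52e-05). DIABLO and HTRA2, which release caspases from inhibitors, were called at 1.26 and −0.96 (edgeR adjusted p = 0.0487 and 0.039). DIABLO was not called without PAR vehicle 1 (1.25) or 2 (0.93) or TR vehicle 2 (1.12) or 3 (1.18), and HTRA2 without PAR vehicle 2 (−0.90) or 3 (−0.73) or TR vehicle 1 (−0.68) or 3 (−1.10).

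Of 5 tested inhibitor of apoptosis genes, 2 rose and none fell (list median 0.36), a share near that of all genes. BIRC3 (cIAP2) had 17.4, 8.31 and 9.88 CPM in TR vehicle cells, against 3.44, 1.11 and 1.71 CPM in PAR vehicle cells (log2 fold change 2.47, SE 0.388, edgeR adjusted p = 0.000199). BIRC5 (survivin), which also acts in mitosis, rose by 0.85 (SE 0.223, edgeR adjusted p = 0.00803).

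Of 10 tested genes of the death receptor pathway, 4 rose and none fell (list median 0.49), again near the share of all genes. FAS, the receptor of Fas ligand, had 140.7, 96.7 and 93.4 CPM in TR vehicle cells, against 7.38, 7.94 and 5.68 CPM in PAR vehicle cells. No library of either group came near the other group, and the log2 fold change was 4.00 (SE 0.232, edgeR adjusted p = 1.41e-08). TRADD, an adaptor of TNF receptors, rose by 1.70 (SE 0.405, edgeR adjusted p = 0.00453), and TNFRSF10C, a decoy receptor for TRAIL, was called at 1.45 (edgeR adjusted p = 0.0251) but not without PAR vehicle 1 (1.18) or TR vehicle 2 (1.36) or 3 (1.22).

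Of 19 genes that regulate the family, 3 rose and 8 fell (list median −0.04). ESR1, the oestrogen receptor, was at 251, 190.1 and 195 CPM in TR vehicle cells, against 662, 589 and 476 CPM in PAR vehicle cells (log2 fold change −1.44, SE 0.157, edgeR adjusted p = 7.39e-06). PGR, its target, had a log2 fold change of −4.62 (SE 0.274, edgeR adjusted p = 1.74e-08). DDIT3, the stress factor CHOP, and STAT5A had log2 fold changes of −2.62 and −2.24 (edgeR adjusted p = 5.04e-06 and 0.0022). Set side by side as percentages of the PAR vehicle mean CPM, BCL2 was at 40.6, 43.8, 33.8 and 35.5% in TR combination, TR erdafitinib, TR 4-OHT and TR vehicle cells, ESR1 at 52.1, 50.5, 39.1 and 36.8%, and PGR at 6.01, 6.04, 4.18 and 4.07%.

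**Figure D5:**
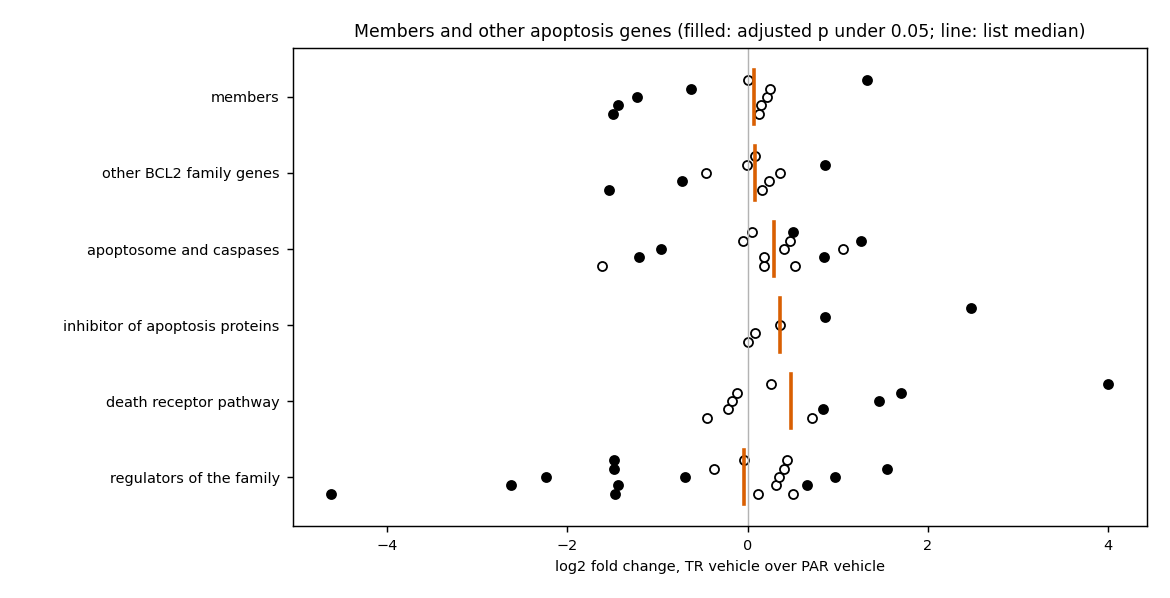
Points are log2 fold changes of TR vehicle over PAR vehicle for the 10 members and for 5 lists of other apoptosis genes, filled where the adjusted p was under 0.05, with the list median as a line. FAS, at 4.00, and PGR, at −4.62, mark the ends, and the members' median of 0.07 lies near 0.

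The drug comparisons within TR cells ask whether 4-OHT or erdafitinib moved the family. In edgeR, 0 of 10 members were called in any of them. For TR 4-OHT against TR vehicle no gene of the transcriptome was called either (0% of those tested, with 127 genes at an unadjusted p under 0.05, and 0 by DESeq2), and member estimates lay between −0.18 and 0.54. For TR erdafitinib against TR vehicle 0.0925% of all genes were called, and for TR combination against TR 4-OHT 0.642%. For TR combination against TR erdafitinib edgeR called 0% of all genes (104 at an unadjusted p under 0.05, and 18 by DESeq2). At an unadjusted p under 0.05 stood 1 member (PMAIP1) in TR combination against TR 4-OHT, against 8.67% of all genes, and 0 members in the other pairs of TR groups, and DESeq2 called 0 members in any of these pairs. Averaged over both 4-OHT states, libraries with erdafitinib differed from those without in 1.71% of genes, and again 0 members were called by edgeR, with 2 at an unadjusted p under 0.05, against 11.7% of all genes, and 1 called by DESeq2, against 3.58%.

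PMAIP1 came nearest. It stood at 7.45, 7.31 and 6.68 CPM in TR combination, 4.69, 5.25 and 4.99 CPM in TR erdafitinib, 3.54, 1.52 and 3.67 CPM in TR 4-OHT and 4.28, 3.22 and 2.67 CPM in TR vehicle cells. Every library with erdafitinib was above every library without it, and every TR combination library was above every TR erdafitinib library. Groups did not overlap in 3.38% of all genes with against without erdafitinib, in 15.7% for TR combination against TR 4-OHT, in 11.6% for TR erdafitinib against TR vehicle and in 5.36% for TR combination against TR erdafitinib. The pooled log2 fold change was 0.91 (SE 0.291, 95% interval 0.26 to 1.56), with an edgeR p of 0.00738 and an adjusted p of 0.177, which misses the threshold. DESeq2 called it (adjusted p = 0.0228), as did edgeR with the within-group axis as a covariate (0.0111). So did edgeR without the 2 shallowest libraries (0.0443) and with the TR groups alone in the fit (0.0467). These settings called 3.58, 15, 1.84 and 2.35% of all genes, in that order, against 1.71% in the main fit. Leaving out any 1 of the 12 TR libraries did not bring it under the threshold, and leaving out a PAR vehicle library was not looked at. Within each 4-OHT state, the log2 fold change was 1.26 for TR combination against TR 4-OHT (SE 0.415, adjusted p = 0.312 in edgeR) and 0.56 for TR erdafitinib against TR vehicle (SE 0.409, adjusted p = 1). The difference between them, the interaction, was 0.71 (SE 0.579, edgeR adjusted p = 1), so the 2 effects were not shown to differ.

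BCL2 also missed the threshold. It had 42.0, 39.4 and 42.1 CPM in TR combination, 42.0, 44.3 and 46.9 CPM in TR erdafitinib, 35.7, 33.6 and 33.6 CPM in TR 4-OHT and 43.1, 30.5 and 34.3 CPM in TR vehicle cells. TR combination lay above TR 4-OHT without overlap, while TR vehicle 1 reached into the range of TR erdafitinib. The pooled log2 fold change for erdafitinib was 0.28 (SE 0.101, edgeR adjusted p = 0.243). It was called with the axis covariate (edgeR adjusted p = 0.0145) or the GC and length correction (0.023). Those settings called 15% and 5.16% of all genes, against 1.71% in the main fit. The pooled change is small beside the difference of −1.50 between TR vehicle and PAR vehicle cells.

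For the other members the pooled estimates were −0.66 for BBC3 (95% interval −1.45 to 0.13), −0.42 for BMF (−0.94 to 0.10), −0.39 for BAK1 (−1.06 to 0.29), −0.21 for MCL1 (−0.49 to 0.07), −0.11 for BCL2L1 (−0.47 to 0.24), 0.13 for BAX (−0.71 to 0.97), 0.13 for BCL2L11 (−0.12 to 0.38) and 0.24 for BIK (−0.55 to 1.02). All 8 intervals held 0, so neither a change nor its absence was shown. With the within-group axis as a covariate 15% of all genes were called with against without erdafitinib, and 5 of the 10 members: BCL2 (0.28) and PMAIP1 (0.89) were higher, and MCL1 (−0.21), BAK1 (−0.34) and BMF (−0.40) lower. In TR combination against TR 4-OHT the same covariate called 2 members, PMAIP1 (1.22) and BAK1 (−0.52), with 8.22% of all genes. The covariate was taken from these same libraries.

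Among the other apoptosis genes, CYCS and STAT5A were called with against without erdafitinib. CYCS had 254, 248 and 194 CPM in TR combination, 206, 252 and 256 CPM in TR erdafitinib, 154, 181 and 182 CPM in TR 4-OHT and 181, 160 and 148 CPM in TR vehicle cells, with no overlap (log2 fold change 0.49, SE 0.105, edgeR adjusted p = 0.0305). STAT5A was lower by 1.63 on the log2 scale (edgeR adjusted p = 0.0403), at 0.170 to 0.426 CPM in the libraries with erdafitinib and 0.258 to 1.403 CPM in those without. Its counts were few, with sums per group of 18 in TR combination, 23 in TR erdafitinib, 55 in TR 4-OHT and 58 in TR vehicle cells. When 1 library was left out, the CYCS call was kept in 3 of 12 fits (without TR vehicle 1, TR erdafitinib 1 or TR combination 3) and the STAT5A call in 2 of 12 (without TR vehicle 1 or TR erdafitinib 1), at 0.45 to 0.54 and −1.85 to −1.44 over all 12. ESR1 stood at an adjusted p of 0.0663 in edgeR, with a pooled log2 fold change of 0.43.

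The promoter of PMAIP1 is shown because PMAIP1 was the member whose libraries with and without erdafitinib did not overlap. The 250 bases before its RefSeq start (GRCh38.p14, plus strand, chr18:59899746-59899995) read, 5′ to 3′, with matches to the cAMP response element core TGACGT and the GC box GGGCGG on either strand in capitals:
PMAIP1 promoter: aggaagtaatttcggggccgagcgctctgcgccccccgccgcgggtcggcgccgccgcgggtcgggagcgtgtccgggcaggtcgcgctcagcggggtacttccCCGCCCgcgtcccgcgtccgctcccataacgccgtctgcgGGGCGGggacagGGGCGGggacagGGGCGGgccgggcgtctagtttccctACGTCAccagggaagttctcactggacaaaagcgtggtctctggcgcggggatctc
TGACGT matched once, beginning at −56 from the start, and GGGCGG matched 4 times, beginning at −146, −106, −94 and −82, with no overlap between them. Windows of 300 bases around the start were at hand for 8 of the 10 members, 10 windows in all. TGACGT was in the PMAIP1 window alone among these and in 7.98% of 35116 promoters, and GGGCGG was in 45% of them. The E-box CACGTG, in 7.26% of promoters, matched 4 times in the BAX window and once in that of BBC3. The oestrogen response element in its palindromic form, in 0.057% of promoters, matched in none of the 10 windows, which says nothing of sites elsewhere.

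The genes whose log2 CPM most resembled each member's over the 15 libraries share depth and the main axis with it, so the likeness is a description. BCL2 was most like PMS2 and SNX30 (Pearson's r 0.988 and 0.987), BCL2L1 like VPS37C and FKBP10 (0.987 and 0.986), BAK1 like PTPRU and RHOF (0.988 and 0.984) and BMF like N4BP3 and SYT12 (0.978 and 0.977). BAX followed OXLD1 and PES1 (0.972 and 0.971), MCL1 ETFDH and WDR26 (0.959 and 0.933), BIK WDR5 and MPV17L2 (0.953 and 0.941), BBC3 BRD3OS and ABHD14B (0.951 and 0.942), BCL2L11 CENPJ and CCDC93 (0.946 and 0.944) and PMAIP1 YJEFN3 and PLEKHA4 (0.929 and 0.928). No member was among the 2 genes most like another member.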

How the data were processed

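Raw counts per Ensembl gene were deposited by the authors for each of the 15 libraries. Per the file headers, featureCounts 2.0.1 counted read pairs on the reverse strand against the Ensembl 104 annotation. The submitters' processing notes name version 1.4.6-p1 of featureCounts, and HISAT2 2.1.0 and GRCh38 for alignment. Trimming was not given in the sources used here. Per the labels' protocols, 100 ng of total RNA went into a stranded kit and 150 bp paired-end sequencing. Reads that fit several genes equally were not counted by default, so genes overlapping on the same strand lose reads (5.27% of the exon length of MCL1, 2.88% of BCL2L11 and 2.39% of BBC3). The members and gene lists were chosen with earlier results of these data known.

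Symbols were matched for 42028 of 60664 IDs. The filter filterByExpr, given the 5 groups, passed 16210 genes and dropped 44454. Counts were then scaled by TMM (factors 0.907 to 1.102) and fitted over all 15 libraries in R 4.3.3 with edgeR 4.0.16, with 1 mean per group and 10 residual degrees of freedom. The quasi-likelihood F test was used for every comparison, with Benjamini-Hochberg adjustment over all genes tested, and a gene was called at an adjusted p under 0.05. CPM and RPKM use TMM-scaled totals, and RPKM the exon length in the files, which joins all isoforms. In a library, 3 counts were 0.105 to 0.432 CPM. Libraries of 1 group differed by more than counting error (chi-square per gene 7.42 to 148). Named beside the members were, from each other list, the called genes with the 3 largest changes in TR vehicle against PAR vehicle and the 2 largest in each other comparison, the 2 genes most like each member, and ESR1 and PGR. Alternatives were median-of-ratios size factors, DESeq2 1.42.0, other filters, fits on the compared groups alone, a replicate block, the within-group axis as a covariate, a GC and length correction, and leaving out libraries. The scripts were tested on simulated data. For erdafitinib pooled over 4-OHT, 66 of 142 simulated 2-fold changes and 11 of 126 1.5-fold changes were called. For TR vehicle against PAR vehicle it was 8 of 133 and 0 of 144. Few genes were changed in the simulation, so these shares need not hold where many genes differ. A member that was not called may still have changed.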

Additional observations from a re-analysis of the deposited data

How the results depend on the processing

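No result changed direction while called. In TR vehicle against PAR vehicle, median-of-ratios size factors called 5 members (35.6% of all genes), as did DESeq2 (39%). A filter at CPM of at least 1 (37.9%), the axis covariate (57.5%) and the GC and length correction (51.4%) also called 5. The replicate block called 4 (34.2%), and 3 were called without a filter (18.1%) and without the 2 shallowest libraries (33.6%). With only the compared groups fitted 1 was called (BCL2, 22.3%). Without any 1 library it was 2 to 3 (28.1 to 37.2% of all genes). Here and above, leaving out 1 library covers only libraries of the groups compared. The main fit called 5818 genes (35.9%), against 9321 with the axis covariate, 3408 with only the compared groups, and 4695 to 6266 without any 1 library. For TR erdafitinib against TR vehicle, 15 genes became 87 with DESeq2, 26 without a filter, 9 with the replicate block, 595 with the axis covariate, 92 with the GC and length correction, 0 with only the compared groups, and 2 to 17 without any 1 library. For TR combination against TR 4-OHT, 104 became 288 with DESeq2, 1332 with the axis covariate (with 2 members, BAK1 and PMAIP1), 354 with the GC and length correction, 65 with only the compared groups, and 45 to 63 without any 1 library. For TR combination against TR erdafitinib, 0 became 18 with DESeq2, 9 without a filter, 32 with the axis covariate and 10 with the GC and length correction, and for the interaction 1 gene was called by DESeq2. For erdafitinib pooled over 4-OHT, 278 became 580 with DESeq2 (1 member) and 2435 with the axis covariate (5 members). It was 836 with the GC and length correction (1 member), and 140 to 445 without any 1 library. Without the 2 shallowest libraries it was 308 (1 member), and with only the TR groups 375 (1 member). Member counts stayed at 0 for the other drug comparisons under every alternative run.

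The labels do not say whether equal replicate numbers pair libraries. Of 30 same-numbered pairs, 14 had deviations correlated above 0.1 (r −0.891 to 0.841). Unlike-numbered pairs reached similar values, such as TR vehicle 1 with TR combination 3 (−0.838) and with TR erdafitinib 3 (0.813). The main axis held 61.4% of the within-group variance, so these correlations cannot decide whether libraries were paired. With the replicate block, TR vehicle against PAR vehicle had 5549 genes and 4 members called (BCL2L1 was lost, edgeR adjusted p = 0.0587), TR combination against TR 4-OHT 76 genes, and erdafitinib pooled over 4-OHT 186 genes. BIK did not pass the filter at CPM of at least 1 and has no value there. With 3 libraries a group and BIK, BBC3 and PMAIP1 at low counts, changes of these members are limited by depth.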
